A study of Mus musculus with 10 samples.

Results

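The epithelial-mesenchymal transition (EMT) was described through 10 genes, the transcription factors Zeb1, Zeb2, Snai1, Snai2, Twist1, Twist2 and Prrx1 and the effectors Vim, Cdh2 and Fn1. They were found by their mouse Ensembl identifiers among the 55359 genes of the table, of which 33001 had a value above 0 in any tumor. All 10 passed the filter of a mean normalized count of at least 1 that left 24560 genes for testing. RNA sequencing was done on tumors grown from luciferase-expressing cells of the murine pancreatic cancer line KPC K8484, placed in the pancreas of immunocompetent C57BL/6 mice (C57BL/6 J in the methods) at 10 weeks of age. The line carries Pdx1-Cre and the mutant allele Trp53 R172H/+, which all tumors of both groups therefore share. In the control group (CTRL) 5 normoglycemic mice drank regular water, and in the other group (D30) 5 mice drank 30% dextrose water for 14 days. The methods give both sexes of mice for orthotopic experiments, but the sex behind each tumor is not given in the sources used here. The labels give the CTRL columns as N and leave the T columns as the only other group, but no column could be tied to a single mouse. The sample titles call the tumors PDX, while their source label names KPC K8484 cells and the table lists mouse genes.

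During EMT, epithelial cells lose their junctions and apical-basal polarity and gain the shape and motility of mesenchymal cells. Zeb1, Zeb2, Snai1 and Snai2 are zinc finger proteins that bind E-box motifs and repress junction genes such as Cdh1, Twist1 and Twist2 are basic helix-loop-helix factors, and Prrx1 is a homeobox factor. Vim encodes the intermediate filament vimentin, Cdh2 encodes N-cadherin and Fn1 encodes the matrix glycoprotein fibronectin. In pancreatic cancer these genes are active both in tumor cells and in the stroma, where fibroblasts, endothelial cells and macrophages carry several of them. The tumors were sequenced in bulk, so fewer cells of a type and less RNA per cell cannot be told apart.

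The E-box CACCTG, read on either strand (the other strand reads CAGGTG), was searched in RefSeq promoter windows of GRCm38.p6 that run from 250 bases before to 50 bases after a start site. Of 32851 such windows, 20.2% held it, and of the 27025 genes with a window, 22.6% had it in at least 1. Of the 10 EMT genes 6 had a window, and only that of Snai1 held the motif, 126 bases before the start, while those of Zeb2, Twist1, Twist2, Prrx1 and Vim did not. Among epithelial genes listed as targets of EMT factors, mostly junction and keratin genes, 10 of the 12 with a window held it, all but Jup and Tjp1. Of the other lists searched, 2 of 5 epithelial identity factors and 2 of 18 other mesenchymal genes with a window did. A match is only a run of letters in the window and does not show binding. The windows of Snai1 (chr2:167537945-167538244, plus strand), Crb3 (chr17:57061951-57062250, plus strand) and Cldn7 (chr11:69965171-69965470, plus strand) are given because Snai1 was the one EMT gene with a match and the other two genes passed the limma test over all tumors, in opposite directions. Crb3 and Cldn7 had 2 windows each, and the one shown was chosen for its number of matches. Capitals mark the motif, which occurred once in the window of Snai1, 4 times in that of Crb3 and 2 times in that of Cldn7.
Snai1: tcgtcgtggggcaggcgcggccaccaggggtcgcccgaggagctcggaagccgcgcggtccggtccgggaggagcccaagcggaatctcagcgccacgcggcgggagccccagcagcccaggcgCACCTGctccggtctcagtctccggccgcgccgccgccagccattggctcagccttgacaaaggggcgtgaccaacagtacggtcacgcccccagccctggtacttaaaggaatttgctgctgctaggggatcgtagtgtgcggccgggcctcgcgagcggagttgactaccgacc
Crb3: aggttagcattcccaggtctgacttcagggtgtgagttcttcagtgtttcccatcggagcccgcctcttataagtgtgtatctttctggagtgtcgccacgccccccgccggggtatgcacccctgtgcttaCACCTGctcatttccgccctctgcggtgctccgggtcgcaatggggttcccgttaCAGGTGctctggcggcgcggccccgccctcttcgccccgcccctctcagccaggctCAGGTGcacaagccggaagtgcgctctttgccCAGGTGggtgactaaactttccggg
Cldn7: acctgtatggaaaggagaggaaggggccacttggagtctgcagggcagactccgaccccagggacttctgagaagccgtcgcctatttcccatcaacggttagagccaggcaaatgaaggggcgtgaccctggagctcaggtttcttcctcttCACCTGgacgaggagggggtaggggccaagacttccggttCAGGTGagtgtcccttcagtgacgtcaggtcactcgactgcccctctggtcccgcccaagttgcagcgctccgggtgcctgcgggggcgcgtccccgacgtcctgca

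Zeb1 and Zeb2 are also known for mutual repression with the miR-200 family. The mature miRNAs from RefSeq (GRCm38.p6) are given because their seeds, bases 2 to 8 in capitals, divide them into a pair with AACACUG and a trio with AAUACUG.
mmu-miR-141-3p: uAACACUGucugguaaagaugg
mmu-miR-200a-3p: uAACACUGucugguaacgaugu
mmu-miR-200b-3p: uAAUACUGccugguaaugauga
mmu-miR-200c-3p: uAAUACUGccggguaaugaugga
mmu-miR-429-3p: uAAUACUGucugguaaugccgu
The 3′ UTR of Zeb2 in GENCODE M21 (GRCm38), 4941 bases long, held 4 matches to the first seed and 5 to the second. That of Zeb1, 2401 bases long, also held 4 and 5. The first match to each seed in Zeb2 lay at chr2:44988356-44988377 and chr2:44988172-44988193 on the minus strand, and capitals mark the complement of the seed.
Zeb2 site for AACACUG: caaaaattttgtaCAGTGTTaa
Zeb2 site for AAUACUG: cactaccatacatCAGTATTtt
The miRNAs themselves were not measured by these libraries, in which the miR-200 hairpin genes had at most 3 reads in any tumor.

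Depth, as reads recovered per tumor, was 29915331 to 42122304 for CTRL and 29192261 to 37126175 for D30. D30 tumor T5 had the fewest genes with a read, 20482, against 23446 to 24716 in the other D30 tumors and 24200 to 25912 in CTRL. D30 tumor T4 held 841 reads of Y-linked genes and the other 9 tumors 0. Sex was not in the fits, so it cannot be told apart from other features of T4. Ductal epithelial keratins and Cdh1 were abundant in all 10 tumors, whereas Epcam ranged from 0 to 191.5 normalized counts. T4 and T5 often stood at opposite ends of the values below, but both were high in Snai2 and Prrx1. Values without them are given beside those over all tumors, and the fit without both was chosen after seeing the data.

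None of the 10 EMT genes differed between D30 and CTRL tumors at an adjusted p under 0.05 (limma), a call that 678 of the 24560 tested genes, or 2.76%, received. At an unadjusted p under 0.05, which 17.3% of all genes reached, 2 of the 10 did, namely Fn1 and Zeb1. DESeq2 on the recovered reads called 1 of the 10, Fn1, and 8.3% of the genes to which it gave an adjusted p. edgeR called 0 of the 9 it tested, all but Twist2, and 4.13% of all genes. Fitted log2 fold changes were below 0 for 9 of the 10, all but Vim, against 54.7% of all genes. Their median was -0.42, and that of all tested genes was -0.07. The groups overlapped in all 10 genes, while 6.19% of all genes had groups that did not. Without T4 and T5, which leaves 3 D30 tumors, 4 of the 10 were called and lower in D30 (Zeb1, Snai2, Prrx1 and Fn1), against 9.97% of all genes called in either direction. That fit was chosen after seeing these values, so its calls are no independent support for a difference. Without T4 alone, 1 of the 10 was called, Fn1, against 6.43% of all genes.

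**Figure D1:**
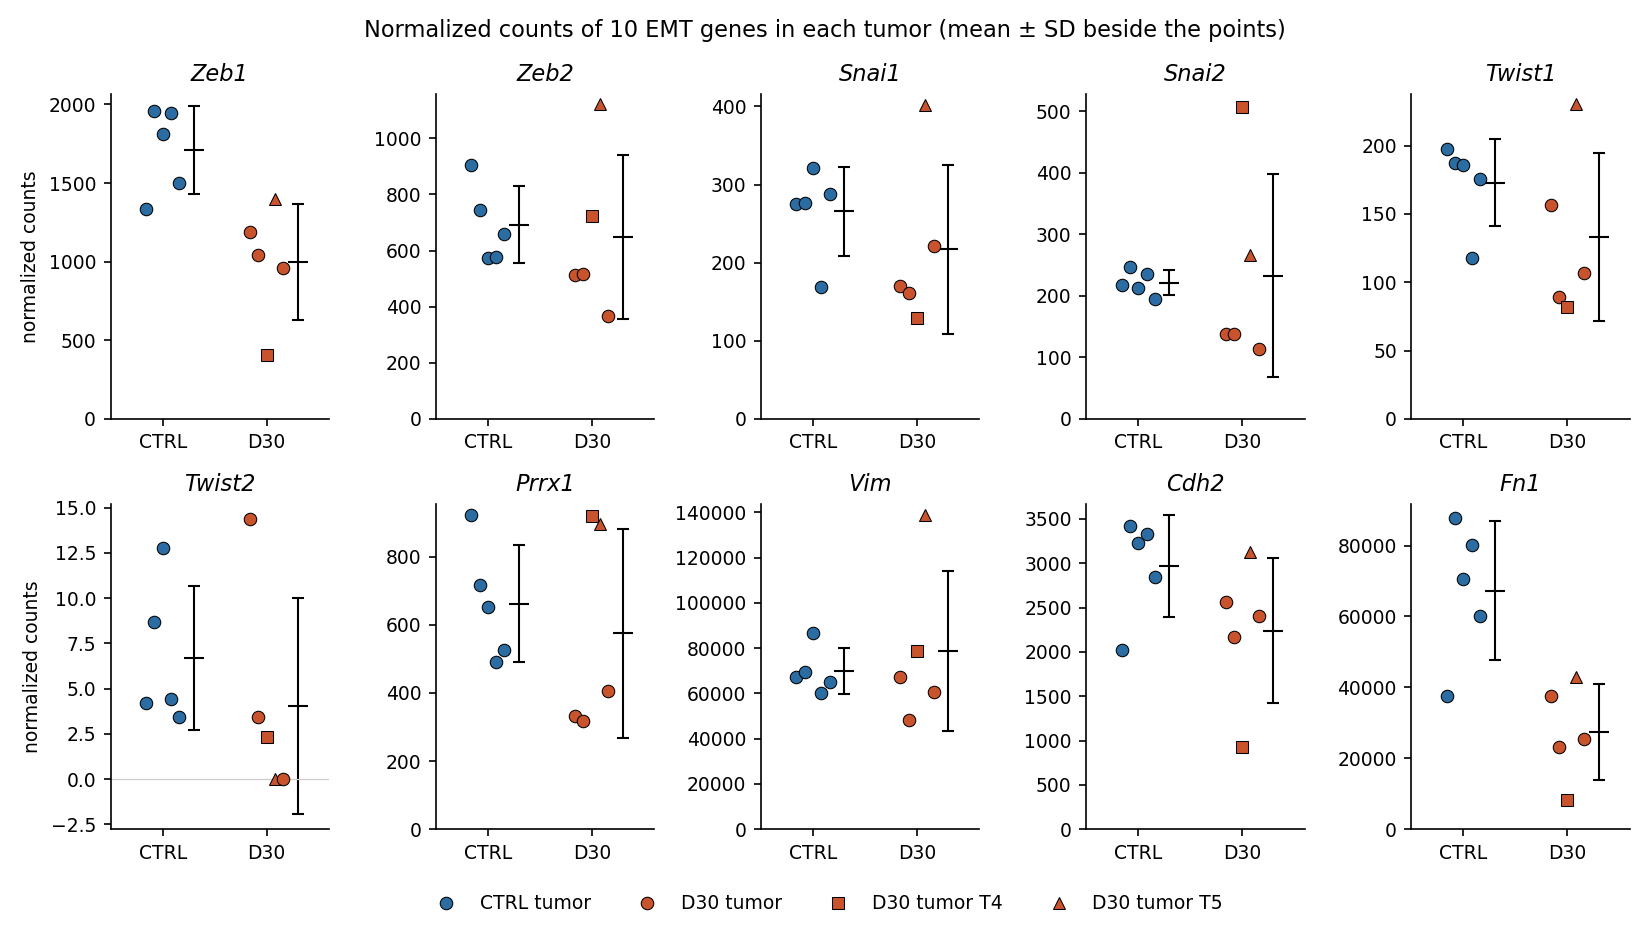
Normalized counts (vertical axes, each from its own 0, or below 0 where the error bar reaches there) of the 10 EMT genes in 5 CTRL and 5 D30 tumors, 1 point a tumor, with the mean and SD beside the points. Squares and triangles mark D30 tumors T4 and T5. The Fn1 and Zeb1 means are lower in D30, the groups overlap in every panel, and T4 or T5 is the most extreme D30 tumor in most panels.

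Compared per kilobase of exon, Vim was the most abundant of the 10 in CTRL tumors, at a mean of 14714 normalized counts per kilobase, followed by Fn1 at 5758 and Cdh2 at 368. The factors lay below these effectors. Zeb1 stood at 167 and Snai1 at 164, with ranges of 130 to 191 and 104 to 198 over the tumors, so their order is within the spread. Snai2 at 110 and Twist1 at 106 were also within each other's range. Prrx1 followed at 59.8 and Zeb2 at 34.7, with ranges of 44.3 to 83.4 and 28.8 to 45.4 that overlap slightly. Twist2 was lowest at 2.11. In D30 tumors the 3 effectors and the last 4 factors kept their places. Zeb1 came after Snai1 at 134 and Snai2 at 115 there, with 97.3 normalized counts per kilobase, although the ranges of these genes overlapped in D30 too.

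Among the zinc finger factors, Zeb1 (ENSMUSG00000024238, chromosome 18) had the lowest p. It had 1335, 1960, 1814, 1945 and 1502 normalized counts in CTRL tumors N1, N2, N4, N5 and N6, and 1187, 1042, 409, 1399 and 957 in D30 tumors T1, T2, T4, T5 and T7. The 2 groups met only where T5 lay above N1, and T4 was far below every other tumor. The means were 1711 ± 279 (SD, n = 5) and 999 ± 370 (SD, n = 5). The difference was -0.87 on the log2(normalized count + 1) scale used for every limma fold change here (SE 0.29, 95% interval -1.51 to -0.23), and it did not pass the test (limma, adjusted p = 0.147; unadjusted p = 0.0111; two-sided exact permutation p = 0.0159). Without T4 it was -0.58 (adjusted p = 0.0653), and without T4 and T5 it was -0.68 (adjusted p = 0.0210).

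Its relative Zeb2 (ENSMUSG00000026872, chr2:44983632-45117395 in GRCm38) had another order of tumors. The values were 905, 744, 575, 576 and 661 in CTRL and 511, 518, 723, 1121 and 366 in D30. T5 was the highest and T7 the lowest of all 10 tumors, so the D30 tumors enclosed the whole CTRL range. The difference of -0.18 (SE 0.28, 95% interval -0.79 to 0.43) was smaller than the spread (limma, adjusted p = 0.792). It was -0.41 without T5 (adjusted p = 0.397) and -0.57 without T4 and T5 (adjusted p = 0.0878).

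Snai1 (ENSMUSG00000042821, chr2:167538195-167542814), which encodes the Snail repressor, had 275, 276, 321, 169 and 288 normalized counts in CTRL tumors and 171, 162, 130, 402 and 222 in D30 tumors. T5 again gave the highest value of all and T4 the lowest. The difference was -0.38 (SE 0.32, limma adjusted p = 0.587), and it was -0.22 without T4, -0.63 without T5 and -0.50 without both, with adjusted p of 0.700, 0.219 and 0.201. Snai2 (ENSMUSG00000022676, chr16:14705852-14709385), which encodes Slug, was tight in CTRL, at 217, 247, 213, 236 and 195. In D30 it had 138, 139, 507, 267 and 114, with 3 tumors below and 2 above every CTRL tumor. The difference over all of them was -0.16 (SE 0.37, limma adjusted p = 0.864). It was -0.50 without T4 (adjusted p = 0.270) and -0.76 without T4 and T5 (adjusted p = 0.0248), and it turned to 0.071 with DESeq2. T4 and T5 are the 2 tumors above every CTRL tumor and were left out after their values were seen, so that call is no independent support.

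The helix-loop-helix factor Twist1 (ENSMUSG00000035799, chr12:33957671-33959829) had 198, 187, 186, 118 and 175 normalized counts in CTRL and 156, 89.3, 82.1, 230 and 107 in D30. T5 was the highest of all, T2, T4 and T7 lay below every CTRL tumor, and the difference was -0.46 (SE 0.32, limma adjusted p = 0.494). Without T4, without T5 and without both it was -0.32, -0.69 and -0.57, with adjusted p of 0.570, 0.205 and 0.184. Twist2 (ENSMUSG00000007805, chr1:91801461-91848028) was close to the floor of 3 reads. Its reads numbered 4, 12, 14, 5 and 4 in CTRL and 14, 3, 2, 0 and 0 in D30. At this depth no difference was detectable for it (limma, adjusted p = 0.423), and its fitted fold change depends on the pseudocount.

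Prrx1 (ENSMUSG00000026586, chr1:163245119-163313710), a factor of mesenchymal and fibroblast lineages, had 923, 716, 653, 490 and 526 normalized counts in CTRL and 333, 318, 921, 896 and 407 in D30. Of the D30 tumors, 3 were below every CTRL tumor and a pair, T4 and T5, was level with the highest one. The difference was -0.33 over all tumors (SE 0.34, limma adjusted p = 0.668) and -0.88 without that pair (adjusted p = 0.0197). The pair was left out after its values were seen, so that call is no independent support.

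Of the effectors, Fn1 (ENSMUSG00000026193, chr1:71585520-71653200) had the largest difference of the 10 genes in the limma fit over all tumors. It had 37524, 87806, 70543, 80264 and 60251 normalized counts in CTRL tumors and 37668, 23073, 8112, 42976 and 25373 in D30 tumors. The 4 CTRL tumors other than N1 lay above all D30 tumors, N1 lay within the D30 range, and T4 was the lowest of all. The means were 67278 ± 19592 (SD, n = 5) and 27440 ± 13628 (SD, n = 5). The difference was -1.44 (SE 0.41, 95% interval -2.31 to -0.56), or 0.369 of the CTRL level (0.201 to 0.677), and it stayed above the threshold (limma, adjusted p = 0.0814; unadjusted p = 0.00357; two-sided exact permutation p = 0.0238). It passed with DESeq2 (-1.29, adjusted p = 0.0184), without T4 (-1.05, adjusted p = 0.0330) and without T4 and T5 (-1.20, adjusted p = 0.0132). With edgeR it did not (-1.28, adjusted p = 0.0889).

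Cdh2 (ENSMUSG00000024304, chromosome 18) followed a similar order of tumors with a smaller difference. Its values were 2023, 3418, 3229, 3327 and 2842 in CTRL and 2568, 2170, 924, 3127 and 2403 in D30, so that T4 was lowest and N1 lowest among CTRL, as for Fn1 and Zeb1. The difference was -0.49 (SE 0.30, limma adjusted p = 0.430), and it was -0.20 without T4 (adjusted p = 0.555), -0.64 without T5 (adjusted p = 0.298) and -0.30 without both (adjusted p = 0.335).

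Vim (ENSMUSG00000026728, chr2:13573927-13582826) was the only one of the 10 with a fitted value above 0. It had 67163, 69587, 86804, 60322 and 65062 normalized counts in CTRL and 67227, 48451, 78622, 139039 and 60667 in D30. T5 had by far the highest value, T2 the lowest, and the other 3 D30 tumors lay within the CTRL range. The difference was 0.09 (SE 0.27, 95% interval -0.50 to 0.68, limma adjusted p = 0.905). It turned to -0.14 without T5 and to -0.14 with library-size scaling, so its direction depended on the setting. Library-size scaling moved the median of all tested genes from -0.07 to -0.27, and the 864 genes it called were 240 higher and 624 lower in D30, against 344 and 334 of the 678.

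**Figure D2:**
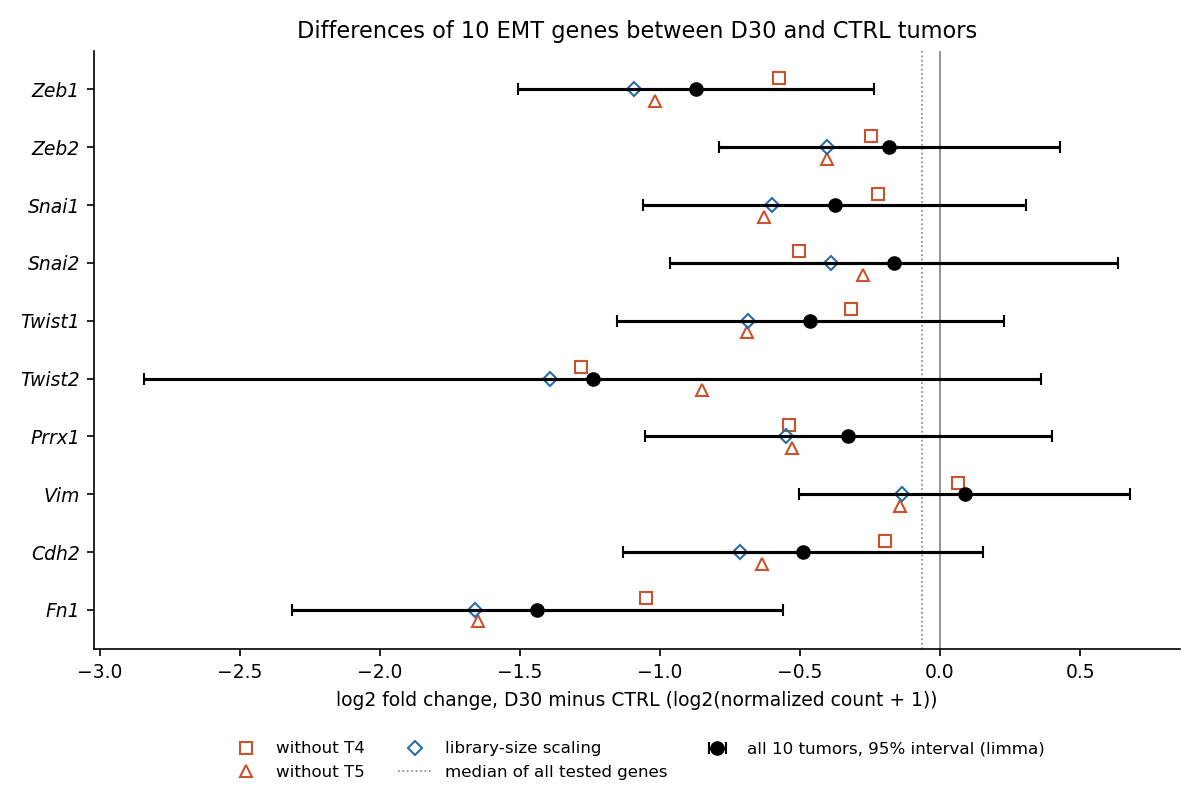
Log2 fold change of each of the 10 EMT genes, D30 minus CTRL, with its 95% interval from limma over all 10 tumors (black), and the value without T4 (squares), without T5 (triangles) and with library-size scaling (diamonds). The dotted line is the median of all tested genes. Only the intervals of Zeb1 and Fn1 leave out 0, and the Vim symbols fall on both sides of it.

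The EMT genes did not share a single order of tumors. T5 was the highest D30 tumor in 7 of the 10 genes and the highest of all tumors in Zeb2, Snai1, Twist1 and Vim. T4 was the lowest of all tumors in Zeb1, Snai1, Twist1, Cdh2 and Fn1, but the highest of all in Snai2 and the highest D30 tumor in Prrx1. Among CTRL tumors, N2 was highest and N1 lowest in Zeb1, Cdh2 and Fn1. All 10 genes had a larger SD of log2 values among D30 than among CTRL tumors, as did 84.4% of all tested genes, whose median SD was 0.418 in CTRL and 0.780 in D30. For Snai2 the SD was 0.13 in CTRL and 0.89 in D30, and for Vim it was 0.20 and 0.57.

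**Figure D3:**
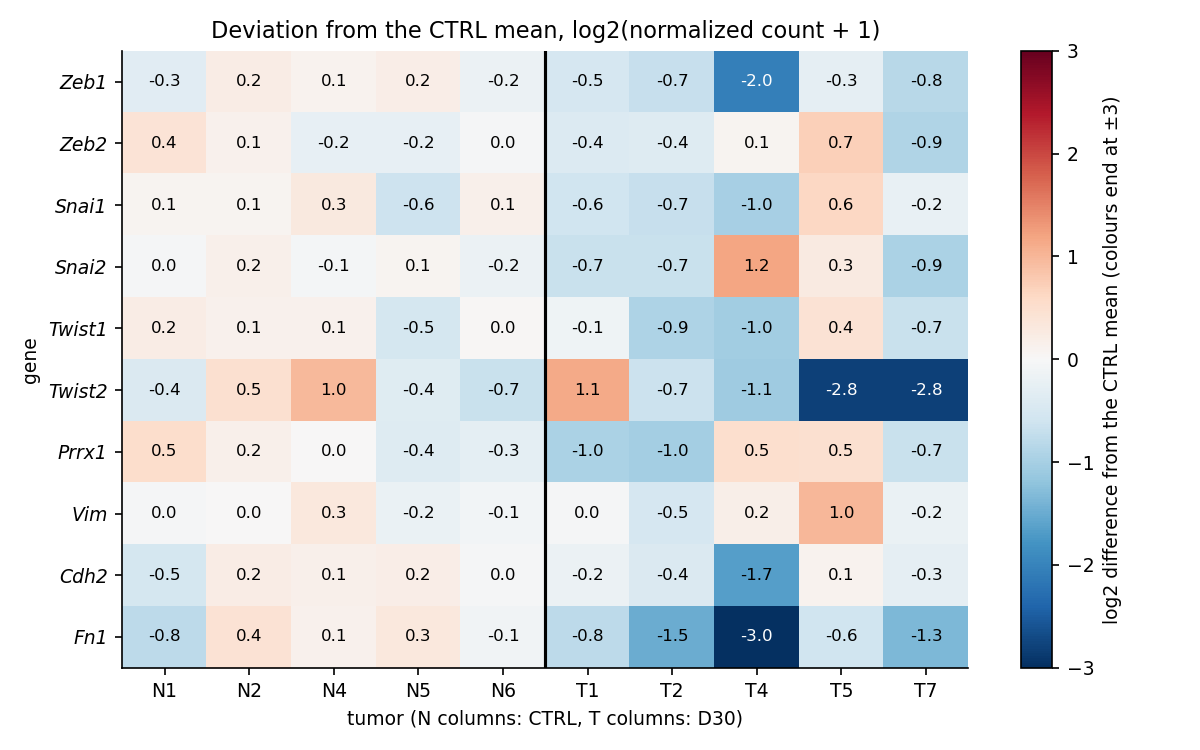
Deviation of each of the 10 EMT genes from its CTRL mean in every tumor, on the log2(normalized count + 1) scale, with CTRL tumors left of the line and D30 tumors right of it. T4 is low in Zeb1, Cdh2 and Fn1 and high in Snai2, T5 is high in Zeb2, Snai1 and Vim, and the 2 darkest cells of Twist2 are tumors with 0 reads.

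The gene whose log2 values followed those of a member most closely over the 10 tumors was looked up among 13550 genes with a mean of at least 50, as a description in which 5 tumors of each group and their shared scaling enter every value. Zeb1 was closest to Dennd5a (Pearson r = 0.989) and then to Fn1 (r = 0.984), and Fn1 was closest to Nrde2 (r = 0.985) and then to Zeb1. Cdh2 was closest to Flywch1 (r = 0.987) and Plppr2 (r = 0.986). Zeb2 was closest to Arhgap24 (r = 0.949) and Ror1 (r = 0.938), and Prrx1 to Kdelr3 (r = 0.976) and B2m (r = 0.964). Vim went with Utp3 (r = 0.960) and Wnt5a (r = 0.955), Snai1 with C1s1 (r = 0.947) and Emp2 (r = 0.937), and Snai2 with Ubtd1 (r = 0.969) and Crnde (r = 0.961). Twist1 went with Tmed8 (r = 0.964) and Rcn1 (r = 0.949), and Twist2, at few reads, with Aff2 (r = 0.930) and Foxk2 (r = 0.909).

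Ratios of well-measured genes within a tumor do not depend on its scaling. The switch from E-cadherin (Cdh1) to N-cadherin (Cdh2) is a common reading of EMT. The log2 ratio of Cdh2 to Cdh1 ran from -2.91 to -2.18 in CTRL and from -4.42 to -2.75 in D30, with a D30 minus CTRL difference of -0.93, and only T5 lay inside the CTRL range. Cdh1 itself averaged 18090 ± 2830 in the control tumors against 24726 ± 5521 with dextrose (SD, n = 5 each; limma, adjusted p = 0.282). The log2 ratio of Fn1 to Vim ran from -0.84 to 0.41 in CTRL and from -3.28 to -0.84 in D30, a difference of -1.53, and the groups met only at N1 and T1. These ratios are given as values with no test. For Vim to Cdh1 the difference was -0.35, with T5 highest of all tumors at 2.72. For Zeb2 to Zeb1 it was 0.69, with T4, at 0.82, the only tumor with more Zeb2 than Zeb1 counts. For Snai2 to Snai1 it was 0.21, with T4 at 1.96. For Twist2 to Twist1 the D30 values lay on both sides of the CTRL range, and the difference of -0.78 rests on the pseudocount, since it was -1.15 with 0.5 and -0.066 with 5.

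**Figure D4:**
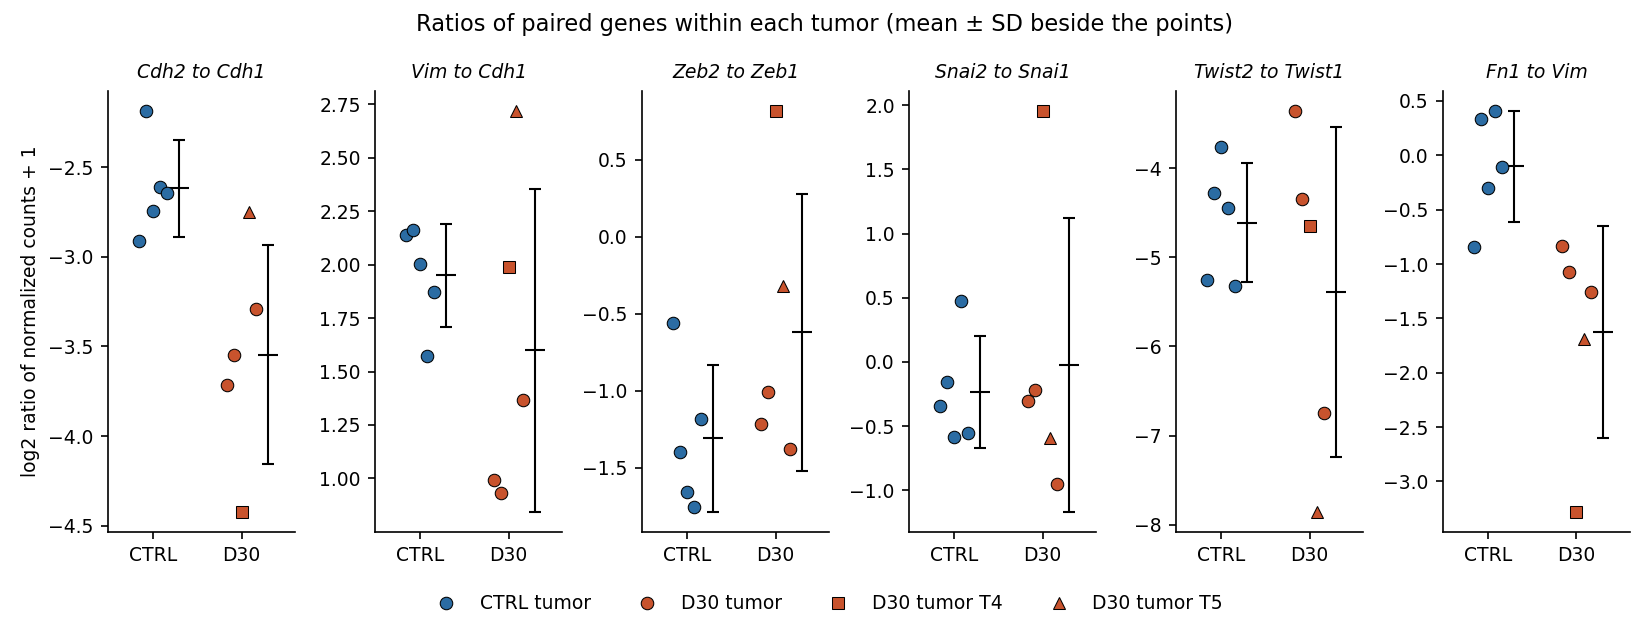
Log2 ratios of paired genes (normalized counts + 1) in each tumor, with the mean and SD of 5 CTRL and 5 D30 tumors beside the points. The axes do not start at 0. Most D30 tumors lie below CTRL tumors for Cdh2 to Cdh1 and Fn1 to Vim, and T4 (square) stands apart for Snai2 to Snai1.

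Around the 10 genes, 94 other genes of the pathway were looked at in 6 lists, of which 93 were tested and 8, or 8.6%, were called, 3 higher and 5 lower in D30, against the 2.76% of all genes. The lists were chosen with earlier results of these data known, so these shares cannot be read as an enrichment. Of 11 other EMT transcription factors tested, 0 were called. The lowest p among them was that of Sox4, a factor upstream of several EMT genes, with means of 18930 ± 2966 and 12710 ± 1881 (SD, n = 5 each; limma, adjusted p = 0.122). Gsc was not tested. Of 11 partners and turnover proteins of the EMT factors, 0 were called, and the corepressor scaffold Sin3a had the lowest p, with means of 2214 ± 179 and 1748 ± 243 (adjusted p = 0.293). Of 17 EMT-inducing signals, 1 was called, the ligand Tgfb3. It fell from 1005 ± 119 to 494 ± 148 normalized counts (log2 fold change -1.07, SE 0.24, limma adjusted p = 0.0298), while Tgfb1 had means of 3855 ± 925 and 4892 ± 2049 (adjusted p = 0.723). Leaving out 1 tumor at a time, the limma adjusted p of Tgfb3 reached 0.105, so its call did not hold in every fit.

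Of 10 factors that hold epithelial identity, 1 rose and 1 fell. Ovol1, a zinc finger repressor that promotes the epithelial state, rose from 2.10, 5.78, 8.22, 13.3 and 1.71 normalized counts in CTRL to 140, 253, 16.2, 43.5 and 123 in D30 (log2 fold change 3.76, SE 0.73, limma adjusted p = 0.0150). Esrp1, an epithelial splicing regulator, fell from 10, 17, 5, 6 and 17 reads to 0, 0, 1, 0 and 0 reads (adjusted p = 0.00656), at a depth where its fold change depends on the pseudocount. Of 16 epithelial target genes, 2 rose and 1 fell, with a median log2 fold change of 0.52 against -0.07 for all tested genes. Crb3, a polarity protein, rose from 1139 ± 184 to 2187 ± 423 (0.93, SE 0.19, adjusted p = 0.0207). Pkp3, a desmosomal plakophilin, rose from 1783 ± 504 to 3627 ± 193 (1.07, SE 0.20, adjusted p = 0.0136). The tight junction claudin Cldn7 fell from 43, 47, 23, 7 and 17 reads to 4, 4, 2, 0 and 4 reads, just under the threshold (adjusted p = 0.04998). Leaving out 1 tumor at a time, the adjusted p of Cldn7 reached 0.153 and that of Crb3 0.0798, and with library-size scaling that of Crb3 was 0.0904, so neither call held in every fit. Epcam had 182, 123, 48, 18 and 100 reads in CTRL and 6, 0, 54, 3 and 8 in D30 (adjusted p = 0.0990).

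Of 28 other mesenchymal effectors, 2 were called, both lower in D30, with a median log2 fold change over the list of -0.36. Cdh11, a cadherin of mesenchymal cells, fell from 1526 ± 618 to 612 ± 181 (-1.29, SE 0.28, limma adjusted p = 0.0255). Cd44, a hyaluronan receptor, fell from 21452 ± 4963 to 10073 ± 1925 (-1.08, SE 0.21, adjusted p = 0.0166). Leaving out 1 tumor at a time, the limma adjusted p of Cdh11 reached 0.0791 and that of Cd44 0.0644, so these calls did not hold in every fit either. The number called among the 93 genes depended on single tumors, at 3 without N2 and 16 without T4, and it was 20 without T4 and T5. The number called over all tested genes moved in the same direction, at 279, 1573 and 2418 in these fits against 678 over all tumors.

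**Figure D5:**
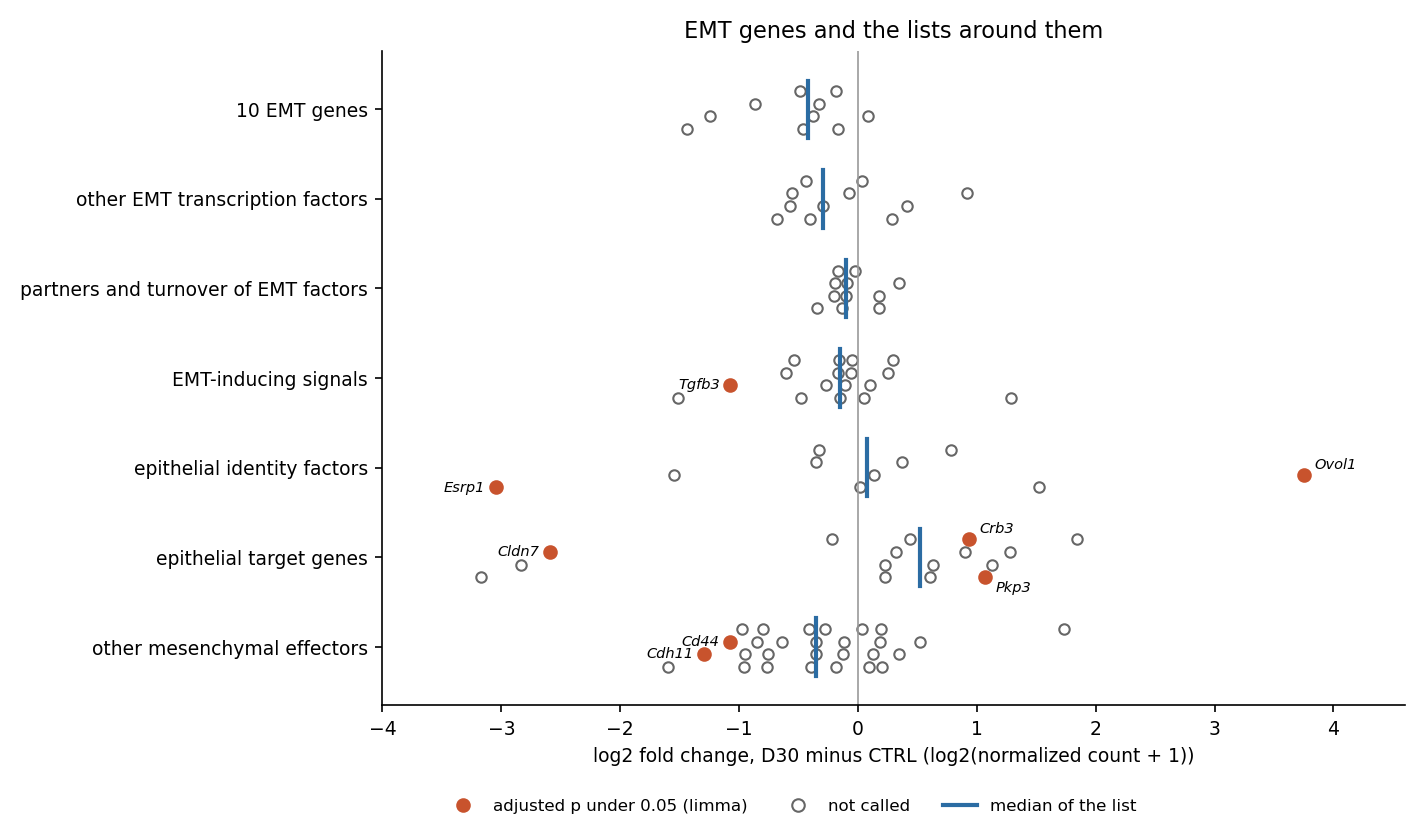
Log2 fold changes, D30 minus CTRL, of the 10 EMT genes and of the 6 lists around them, 1 circle a gene, with the median of each list as a bar. Filled and named genes have an adjusted p under 0.05. The 10 EMT genes have no filled circle, and the 8 filled ones lie on both sides of 0.

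Marker genes of other cell types were summed per tumor. The summed markers of endothelial cells ran from 10874 to 18120 normalized counts in CTRL and from 5399 to 9713 in D30, with Cdh5 the only 1 of 6 called and lower. Cdh5 made this separation, since the other 5 markers summed to 3481 to 3971 and 2303 to 5162, which overlap. T cell markers ran from 261 to 527 and from 160 to 255, with 0 of 6 called, but overlapped slightly without Trac, at 173 to 380 and 59.5 to 180. Those of ductal epithelium, by contrast, ran from 224679 to 355284 and from 377561 to 500428, with 0 of 8 called. Without Krt8 they stayed apart, but other keratins remained in that sum. Singly, only Krt7 and Krt18 of these markers had groups that did not overlap. Epcam went the other way, with a log2 fold change of -3.17 (limma, adjusted p = 0.0990). Fibroblast markers ran from 5790 to 11394 and from 4749 to 6667, with 0 of 8 called and 7 of 8 below 0. Macrophage markers ran from 19020 to 32519 and from 10191 to 27973, with Csf1r the only 1 of 8 called and lower. For pericytes and smooth muscle the ranges were 2639 to 4649 and 2105 to 3937, for Schwann cells 215 to 293 and 154 to 234, and for adipocytes 1545 to 2690 and 1811 to 2302, with 0 called in each. Sox10 and Cdh19 were too low to be tested, and Lep was at 0 in 9 tumors. Cidec made up most of the adipocyte sum, and the other 3 adipocyte markers ran from 0 to 401 and from 0 to 10.65. Mesothelial markers ran from 35580 to 43181 and from 28634 to 97714, with T5 at the top, the tumor with the highest Vim, and 0 of 5 called, and without Msln, which made up most of this sum, from 166 to 319 and from 178 to 709. Acinar markers ran from 269 to 56055 and from 144 to 5364, with 0 of 6 called, and islet markers from 11.5 to 1488 and from 0 to 83.6, with Ins1, Gcg and Iapp called lower. The part of these cell types in the values of Fn1, Zeb1 and the other EMT genes was not tested.

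Exons of 4 of the 10 genes overlap a gene on the opposite strand in GENCODE M21, and whether reads were counted by strand is not given in the sources used here. The partners had few counts beside Zeb1 (Gm10125, 12 to 37.8), Zeb2 (Zeb2os, 2.13 to 63.6) and Fn1 (Apol7d, 1.14 to 28.4). Beside Twist2 the partner Gm29100, at 1.05 to 29.8, was as high as the gene itself, so the counts of Twist2 are uncertain. Zeb2os was highest in T4, at 63.6 normalized counts against 2.13 to 32.6 in the other tumors.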

How the data were processed

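RNA from 10 orthotopic tumors (5 CTRL, 5 D30) was sequenced from strand-specific, paired libraries. The authors' processing notes name CASAVA, FastQC, Trim Galore, STAR (2.7.0e) and DESeq2 with GRCm39, the methods name hg38, the data availability statement lists RSEM, and the identifiers are those of mouse. The annotation release and counting settings are not given in the sources used here. The deposited signal is the normalized count, reads divided by a size factor per tumor, and 100% of values gave whole reads (tolerance 0.01 of a read) once that factor was undone. This scaling assumes that most genes do not differ.

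Identifiers were named by GENCODE M21 (GRCm38), which matched 94.1% of 55359, and its exon lengths gave the levels per kilobase. limma (3.58.1, R 4.3.3) with a mean-variance trend was fitted to log2(normalized count + 1) over the 24560 genes with a mean of at least 1, with Benjamini-Hochberg adjustment over all of them. An adjusted p under 0.05 was a call. Each member was also given a two-sided exact permutation p, which cannot go below 0.00794 with 5 against 5 tumors. The fits were tested on simulated data. edgeR (4.0.16), DESeq2 (1.42.0) and limma-voom on recovered reads, pseudocounts of 0.5 and 5, no filter, a mean of at least 10, library-size and upper-quartile scaling and leaving out each tumor were alternatives. An adjusted p that DESeq2 gave as NA stayed NA. The fit without T4 and T5, and marker sums without the most abundant marker, were chosen after seeing the data. The members and lists were chosen with earlier results of these data known. Genes named were the 10 members and in each list those called and the gene with the lowest p. For each member the 2 genes with the highest Pearson r were also named. Cdh1, Tgfb1, Epcam, Jup, Tjp1, Gsc, Sox10, Cdh19, Lep, Msln, Trac, Krt7, Krt8, Krt18, Cidec and the overlapping genes were named beyond this rule. Replicates are separate tumors, so p values measure the spread between tumors of 1 cell line. The genotype of the line is not reported here in full.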

Additional observations from a re-analysis of the deposited data

Results flagged for a closer look

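In 32 groups of 5 tumors (each gene or ratio in CTRL or D30), 3 tumors lay apart from the other 4 by more of the group's range than the 95% limit for 5 samples allows, and chance flags about 1 in 20 groups. Twist1 in CTRL tumor N5 was the lowest of its group at 117.7 normalized counts, 0.72 of the range away from the next tumor. Twist2 in D30 tumor T1 was the highest of its group at 14.39 normalized counts, which corresponds to 14 reads. The log2 ratio of Snai2 to Snai1 in D30 tumor T4 was the highest of its group at 1.959, in the tumor with the highest Snai2 and the lowest Snai1.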

How the results depend on the processing

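No paired analysis was possible because the columns carry numbers that do not match the replicate numbers of the labels. Of 302 alternative values, 270 were taken as the same. A fold change of a gene had to keep its direction and its side of the threshold, and a median or ratio had to stay within the spread. A count of called genes had only to stay near the main count, so 472 (without N1) and 864 (library-size scaling) against 678 are among the 270. The log2 fold change of Vim turned to -0.14 with library-size scaling, -0.14 without T5 and -0.25 without T4 and T5. That of Snai2 turned to 0.087 with edgeR TMM, 0.071 with edgeR on DESeq2 size factors, 0.071 with DESeq2 and 0.031 without T7. Leaving out 1 tumor at a time, Snai2 ranged from -0.50 (without T4) to 0.031 and Vim from -0.14 to 0.24 (without T2). DESeq2 called 1842 genes, 1 of the 10 EMT genes and 19 of the other pathway genes, against 678, 0 and 8. Without T4 and T5, chosen after seeing the data, these counts were 2418, 4 and 20. In the fits that leave out 1 tumor, the genes called ranged from 279 (without N2) to 1573 (without T4), the EMT genes called from 0 to 1 (Fn1, without T4) and the other pathway genes called from 3 (without N2) to 16 (without T4). The cause of these shifts was not tested. Twist2 gave no value with a mean of at least 10, edgeR or limma-voom. With 5 tumors a group, the 95% intervals of Zeb2, Snai1, Snai2, Twist1, Prrx1, Cdh2 and Vim allow differences in either direction, and counting depth limits Twist2.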
